A study of Homo sapiens with 16 samples.

Results

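Phorbol 12-myristate 13-acetate (PMA) was compared with vehicle, in the absence of added steroid, in HEK293 cells. HEK293 is a human embryonic kidney line with some neural features. The difference is taken between groups that make up 8 of the 16 arrays of the series. The 4 vehicle arrays are those titled for mineralocorticoid receptor (MR) expression alone, whose treatment is labelled as none, and the 4 PMA arrays are those titled for receptor expression with PMA stimulation. All 16 arrays share a lipofectamine transfection for 24 h with a plasmid for human MR, gene NR3C2, at 500 ng per well, followed by 4 h of treatment. The PMA dose was 10 nM. The other 8 arrays received deoxycorticosterone acetate (DOC, an MR agonist) at 100 nM, 4 of them with PMA as well. They give the same PMA contrast in the presence of DOC, and the interaction of PMA with DOC. They also enter the filter on dim signals, the choice of probe set and the shared estimate of spread. The SE and p of the first contrast thus draw on all 16 arrays. The labels number the 4 arrays of each group as biological replicates. The model is a single cell line that overexpresses the receptor, and cells without the plasmid were not analysed here.

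PMA is a plant-derived mimic of diacylglycerol. It binds the C1 domains of the diacylglycerol-responsive protein kinase C isoforms and holds these kinases at the membrane, from where they drive the Raf, MEK and ERK cascade, protein kinase D and NF-kB. Transcription of immediate early genes follows within minutes, and their products, many of them transcription factors, phosphatases and RNA-binding proteins, then act on later genes, so a sample taken after hours holds both early and later transcripts.

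RNA was read on a 3' expression array, and values are log2 robust multi-array average (RMA) signals, so a difference of 1 is a 2-fold change. Each of 12495 genes was represented by 1 probe set. A gene dim with vehicle could pass the filter on dim signals only through arrays that received PMA. A dim gene that did not respond was dropped, so the filter partly sets the counts in groups with such genes. Genes are said to have risen or fallen where the limma p, adjusted by Benjamini-Hochberg across these genes, was under 0.05, and differences are PMA minus vehicle ± SE with n = 4 arrays per group. By that rule 5869 genes changed, 47.0% of those tested. There were 2206 that rose, 17.7%, and 3663 that fell, 29.3%. Larger changes leaned the other way. Among genes changed at least 2-fold, 255 rose (2.04%) and 202 fell (1.62%), and among those changed at least 4-fold, 76 rose and 4 fell. Changes under 0.5 on the log2 scale made up 63.9% of the calls. The 4 PMA arrays lay all above or all below the 4 vehicle arrays in 5275 genes, 42.2%. In a bulk measurement, more cells responding and a larger response per cell cannot be told apart.

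Counts given in brackets after a gene group's count are the rises and falls in another scaling, or without PMA replicate 2, and are shown where they move a count by more than 1.5 times and by at least 2 genes, or turn the balance, so a move of 1 gene is not shown. Each called gene named below had groups that did not overlap, except BTC, VCAN, KRT8, PTGER2 and PSMB5 and the SMAD5 probe sets.

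The share of falls depended on how the arrays were scaled. The median difference over all genes was −0.04 on the deposited scale, 0.01 after cyclic loess and 0.05 when each array was centred on a common median. The counts of higher and lower genes were then 3010 and 2990 after cyclic loess and 3418 and 2748 with the common median. In all 3 scalings, 2173 genes rose and 2616 fell. A small fall is therefore read here against these shifts, and gene groups are described by their counts beside the 17.7% and 29.3% of all genes. The 457 genes changed at least 2-fold kept their call in each of the 3 scalings.

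**Figure D1:**
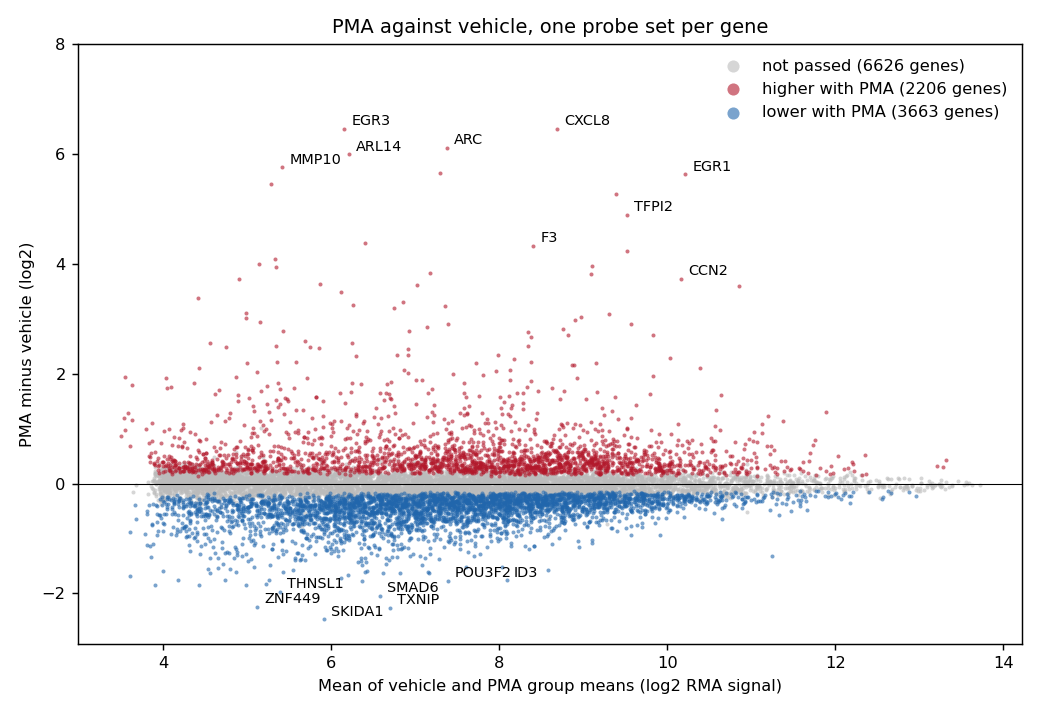
Difference between PMA and vehicle (log2, vertical) against the mean of the 2 group means (log2 RMA signal, horizontal) for 12495 genes, each a point, coloured by call. The rises reach 6.45 and the falls −2.47, and the names mark the 5 largest of each and 6 others.

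Falls were rarest among dim genes. When genes were split into 5 equal groups by mean level, 17.2% of the dimmest group fell, against 36.3%, 36.5%, 32.8% and 23.9% of the next 4 groups. Rises went from 14.4% in the dimmest group to 21.2% in the brightest. Of the 202 falls of at least 2-fold, 54 lay in the dimmest group and 3 in the brightest, while the corresponding numbers for the 255 rises were 46 and 36. Signals near the floor compress differences, which limits how large a fall in the dimmest group can appear.

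Arrays of the same group correlated at 0.991 to 0.997 over the tested genes. PMA replicate 2 stood apart, with a root mean square difference of 0.262 to 0.286 from the other PMA arrays, whereas these differed among themselves by 0.160 to 0.193. Fitted without it, the comparison of PMA against vehicle passed in 5820 genes. Another alternative fit left it out together with DOC replicate 1 and DOC plus PMA replicate 2, as arrays that deviated together. Both PMA contrasts thus hold such arrays, and the source of the deviation was not tested. The NR3C2 probe set averaged 7.43 ± 0.13 (SD, n = 4) with vehicle and 7.21 ± 0.23 with PMA and did not pass (−0.22 ± 0.11, adjusted p = 0.0967, limma), and whether its probes read the plasmid was not tested. Markers of the line were present. Of 10 HEK293 markers, 9 passed the filter on dim signals. Their mean level was 8.42 to 8.61 in the vehicle arrays and 9.001 to 9.12 in the PMA arrays, where NEFM (2.51 ± 0.15), LHX1 (0.83 ± 0.13), KRT8 (0.79 ± 0.14), KRT18 (0.77 ± 0.09) and INA rose and NEFL fell by 0.45 ± 0.10. Of 8 markers for each other cell type, the filter kept 3 leukocyte, 5 endothelial, 3 fibroblast and 4 kidney tubule genes. Among those kept, 1, 3, 3 and 3 averaged below the highest array median in both groups. PTPRC, CD14, CDH5, COL1A2 and UMOD, which define leukocytes, monocytes, endothelium, fibroblasts and kidney tubule, were among those not kept, and of the markers kept, 2 of 3 leukocyte, 3 of 5 endothelial (1 fell), 0 of 3 fibroblast and 1 of 4 tubule genes rose. The mean level of the kept leukocyte markers went from 5.93 to 6.19 in the vehicle arrays to 6.24 to 6.45 in the PMA arrays, and their part in the results was not tested.

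The 12 largest rises among genes whose vehicle mean lay at or above the highest array median joined secreted proteins, transcription factors and feedback regulators. CXCL8 encodes interleukin-8, a chemokine that attracts neutrophils. CXCL8 read 5.79, 4.95, 5.65 and 5.47 in the vehicle arrays and 12.17, 12.02, 11.75 and 11.73 in the PMA arrays. The difference was 6.45 ± 0.16 (adjusted p = 7.42e-16, limma), and no PMA array came near a vehicle array. EGR1 is a zinc finger factor of the immediate early class. EGR1 read 7.49, 6.94, 7.69 and 7.48 in the vehicle arrays and 13.04, 13.09, 13.02 and 12.99 in the PMA arrays. The PMA arrays were close together near the top of the scale, and the vehicle arrays were spread more widely and far lower. C11orf96, a small gene of poorly known function, also rose. C11orf96 read 6.65, 6.56, 7.18 and 6.63 in the vehicle arrays and 12.09, 12.17, 11.83 and 12.01 in the PMA arrays. Vehicle replicate 3 was the highest vehicle array there, still far below every PMA array.

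Secreted and surface regulators of proteolysis and clotting were next. TFPI2 is a Kunitz-type inhibitor of serine proteases in the matrix. TFPI2 read 7.33, 7.13, 6.96 and 6.88 in the vehicle arrays and 12.15, 11.76, 11.99 and 11.96 in the PMA arrays. F3 is tissue factor, the cell surface trigger of coagulation. F3 read 6.32, 6.05, 6.28 and 6.30 in the vehicle arrays and 10.56, 10.90, 10.35 and 10.46 in the PMA arrays. Their differences were 4.89 ± 0.10 and 4.33 ± 0.15, with no overlap of groups. CCN2, connective tissue growth factor, is a matricellular protein. CCN2 read 8.85, 7.93, 8.32 and 8.10 in the vehicle arrays and 12.10, 12.18, 11.93 and 11.88 in the PMA arrays. Its vehicle arrays were the most spread of these, and the difference was 3.72 ± 0.20.

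The remaining 6 act inside the cell on signalling or RNA. IER3 modulates survival and ERK signalling, and rose by 4.22 ± 0.15. TRIB1, a pseudokinase that recruits the COP1 ligase, rose by 3.96 ± 0.08. TRIB1 read 7.10, 7.02, 7.20 and 7.18 in the vehicle arrays and 10.97, 11.22, 11.04 and 11.12 in the PMA arrays. Its groups were among the tightest of the set. PHLDA1 rose by 3.83 ± 0.09, the mRNA-destabilising protein ZFP36 by 3.82 ± 0.14, the ERK phosphatase DUSP6 by 3.61 ± 0.13 and the stress protein GADD45B by 3.60 ± 0.08. GADD45B read 9.27, 8.87, 9.17 and 8.90 in the vehicle arrays and 12.71, 12.74, 12.59 and 12.56 in the PMA arrays. In all 12 genes every PMA array lay above every vehicle array.

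**Figure D2:**
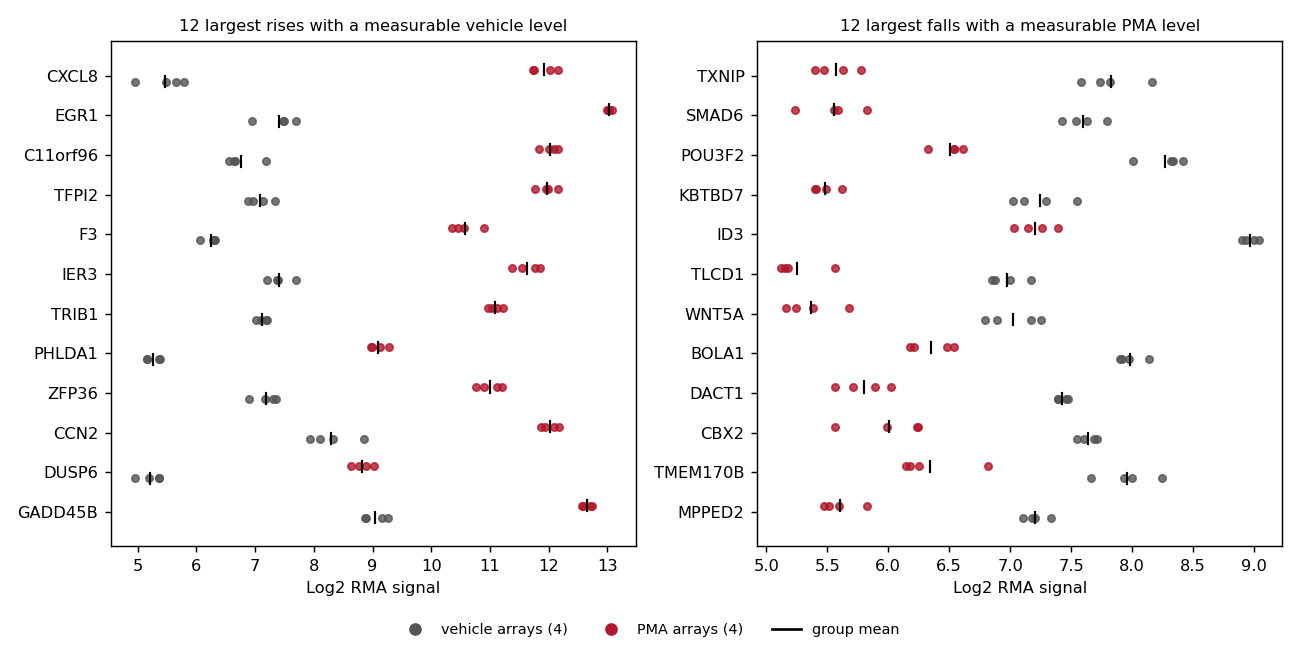
Log2 RMA signal of each array (points; grey vehicle, red PMA, 4 each, black bars group means) for the 12 largest rises and 12 largest falls among genes with a measurable level in the lower group. The groups do not overlap in any of the 24 genes, and the rises (3.60 to 6.45) exceed the falls (−2.26 to −1.60) in size.

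Of the 5 largest rises of all, CXCL8 aside, the others started close to the floor of the array. EGR3 went from 2.93 to 9.38, the activity-regulated cytoskeletal gene ARC from 4.32 to 10.43, the small GTPase ARL14 from 3.21 to 9.20 and the matrix metalloproteinase MMP10 from 2.54 to 8.29. Values at the floor compress a fold change, so the sizes 6.45 ± 0.12, 6.11 ± 0.21, 5.99 ± 0.11 and 5.75 ± 0.14 are not ordered here.

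Promoters of 4 of the 12 genes are printed as examples of large rises whose windows hold motifs of factors downstream of protein kinase C, and were chosen after the values were seen. TFPI2 and GADD45B, which are not printed, also held matches, EGR and NF-kB in TFPI2 and EGR and TATA in GADD45B. The windows cover the 250 bases before the annotated RefSeq start (GRCh38.p14), written 5′ to 3′ on the gene's own strand. They lie at chr4:73740319-73740568 (plus strand) for CXCL8, chr5:138465229-138465478 (plus) for EGR1, chr1:94541760-94542009 (minus) for F3 and chr6:131951373-131951622 (minus) for CCN2. Capitals mark matches to AP-1, CRE, EGR, NF-kB, SRF CArG and TATA letters.
CXCL8: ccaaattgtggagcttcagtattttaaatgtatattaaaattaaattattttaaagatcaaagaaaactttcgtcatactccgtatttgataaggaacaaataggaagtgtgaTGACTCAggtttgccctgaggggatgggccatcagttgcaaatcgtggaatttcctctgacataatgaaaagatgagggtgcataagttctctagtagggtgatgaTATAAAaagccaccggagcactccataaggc
EGR1: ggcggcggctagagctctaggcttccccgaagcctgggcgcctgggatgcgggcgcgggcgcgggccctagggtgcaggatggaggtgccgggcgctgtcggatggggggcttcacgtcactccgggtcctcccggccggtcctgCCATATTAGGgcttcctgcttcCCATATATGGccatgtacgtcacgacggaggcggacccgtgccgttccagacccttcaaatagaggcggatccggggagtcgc
F3: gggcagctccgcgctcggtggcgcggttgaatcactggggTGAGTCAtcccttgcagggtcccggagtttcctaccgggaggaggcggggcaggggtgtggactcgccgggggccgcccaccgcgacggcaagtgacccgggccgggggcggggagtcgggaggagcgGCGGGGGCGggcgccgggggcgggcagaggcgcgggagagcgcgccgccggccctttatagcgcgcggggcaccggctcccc
CCN2: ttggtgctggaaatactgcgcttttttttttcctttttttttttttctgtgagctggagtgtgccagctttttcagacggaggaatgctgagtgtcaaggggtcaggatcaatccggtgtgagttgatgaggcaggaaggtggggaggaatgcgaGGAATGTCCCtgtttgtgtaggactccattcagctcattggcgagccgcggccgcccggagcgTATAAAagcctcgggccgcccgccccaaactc
CXCL8 held an AP-1 match, TGACTCA, from −137 to −131, and a TATA match from −31 to −26, with the start site as position 1. EGR1 held a pair of CArG matches, at −105 to −96 and −83 to −74, the element read by serum response factor. F3 held an AP-1 match, TGAGTCA, at −210 to −204 and an EGR match, GCGGGGGCG, at −82 to −74. CCN2 held an NF-kB match at −95 to −86 and a TATA match at −32 to −27. These are letter matches and not measured binding sites.

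The same motifs were counted in windows of 300 bases (250 before and 50 after the start) for the 10257 of 12495 genes with a RefSeq promoter. The letters were AP-1 TGAGTCA, CRE TGACGTCA, EGR GCGTGGGCG or GCGGGGGCG, ETS CCGGAAGT, the E-box CACGTG, SP GGGGCGGGG, the CCAAT box by those letters, and the CArG and NF-kB sites by name, on either strand, and TATAAA on the gene's strand only. EGR and SP letters can share bases. TATAAA occurred in 4.13% of all promoters, in 14.9% of 194 promoters of genes that rose at least 2-fold, in 26.3% of 57 that rose at least 4-fold, and in 3.09% of 162 that fell at least 2-fold. AP-1 letters occurred in 3.04%, 7.73%, 12.3% and 1.85% of these classes, and EGR letters in 9.67%, 18.6%, 21.1% and 8.02%. NF-kB matches went from 6.84% to 11.3% and 15.8% among the rises and were at 5.56% among the falls. ETS letters went the other way, at 8.40%, 2.06%, 0% and 3.70%. The TATA letters were added after the data had been seen, and the shares are descriptions without a test. The genes of these classes also differed in promoter composition and in length. Median promoter GC was 65.3% among all tested genes and 69.3% among rises of at least 2-fold. It was 65% among rises of at least 4-fold and 64.5% among falls of at least 2-fold, and its part in the motif shares was not tested. The median gene spanned 29.2 kb among all tested genes, 19.8 kb among rises of at least 2-fold, 6.67 kb among rises of at least 4-fold and 24.2 kb among falls of at least 2-fold.

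**Figure D3:**
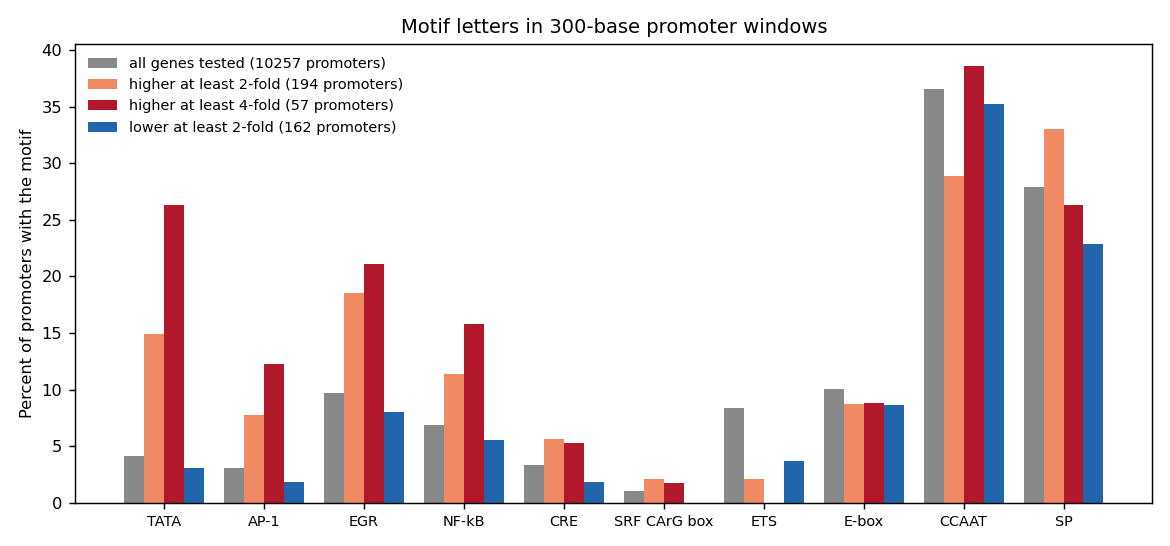
Percent of 300-base promoter windows (vertical) that hold each motif (horizontal) for all tested genes and for genes that rose at least 2-fold, rose at least 4-fold or fell at least 2-fold. TATA, AP-1 and EGR letters are most frequent in the 4-fold class (26.3%, 12.3% and 21.1%), and ETS letters least (0 of 57 promoters).

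The 12 largest falls that ended above the array medians were smaller, between −2.26 and −1.60, and were led by regulators of glucose uptake and of BMP signalling. TXNIP, an arrestin-fold protein that restrains glucose uptake and binds thioredoxin, fell by 2.26 ± 0.15. TXNIP read 7.58, 8.17, 7.73 and 7.82 in the vehicle arrays and 5.47, 5.40, 5.78 and 5.63 in the PMA arrays. SMAD6, an inhibitory SMAD, fell by 2.05 ± 0.10, although 1 of its 3 kept probe sets had the opposite sign. SMAD6 read 7.43, 7.63, 7.54 and 7.80 in the vehicle arrays and 5.24, 5.83, 5.59 and 5.55 in the PMA arrays. ID3, a dominant negative helix-loop-helix protein and a standard target of BMP receptors, fell by 1.76 ± 0.08. ID3 read 8.94, 8.997, 9.04 and 8.90 in the vehicle arrays and 7.03, 7.14, 7.26 and 7.39 in the PMA arrays. The groups were separate in all 3 genes. POU3F2 (BRN2), a neural POU factor, fell by 1.77 ± 0.10, and the Wnt ligand WNT5A by 1.66 ± 0.14. DACT1, which antagonises Wnt signalling through Dishevelled, fell by 1.63 ± 0.13. DACT1 read 7.47, 7.45, 7.39 and 7.39 in the vehicle arrays and 5.71, 5.89, 5.56 and 6.02 in the PMA arrays. CBX2, a Polycomb chromobox protein, fell by 1.63 ± 0.11. The other 5 were KBTBD7, a BTB and Kelch adaptor of a CUL3 ligase (−1.77 ± 0.10), TLCD1 (−1.72 ± 0.12), BOLA1 (−1.63 ± 0.09), TMEM170B (−1.62 ± 0.16) and MPPED2 (−1.60 ± 0.11). SKIDA1 (−2.47 ± 0.12), ZNF449 (−2.24 ± 0.13) and THNSL1 (−1.96 ± 0.10) fell as far but ended below the array medians, where a fall can be understated.

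Growth factor and cytokine families held both rises and falls. In the EGF family, 4 of 10 tested genes rose and 2 fell. HBEGF, a membrane-anchored EGF receptor ligand, rose by 2.27 ± 0.11, the receptor EGFR by 1.01 ± 0.11 and the feedback inhibitor ERRFI1 by 1.55 ± 0.10, whereas the ligand BTC fell by 0.55 ± 0.15. HBEGF read 7.23, 6.81, 7.14 and 6.97 in the vehicle arrays and 9.33, 9.52, 9.20 and 9.20 in the PMA arrays. The HBEGF groups did not overlap. Among FGF, VEGF and PDGF genes, 7 of 21 tested genes rose and 8 fell (9 and 6 after cyclic loess, 10 and 6 with a common median). FGF2 rose by 1.51 ± 0.09, PDGFA by 1.24 ± 0.15, FGF5 by 0.999 ± 0.14 and the receptor FGFR1 by 1.13 ± 0.10, and the receptor-like PDGFRL fell by 0.63 ± 0.07. FGF5 averaged below the array medians in both groups (3.56 with vehicle and 4.56 with PMA).

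Within the IL-6 family, colony-stimulating factors and their SOCS inhibitors, 6 of 24 tested genes rose and 1 fell (6 and 3 without PMA replicate 2). The ligands IL11 (3.38 ± 0.23) and LIF (2.33 ± 0.24), the receptor chain IL6R (2.21 ± 0.12) and the inhibitor SOCS3 (1.63 ± 0.18) rose. IL11 and SOCS3 started at 2.72 and 3.80, near the floor. LIF read 5.34, 4.86, 5.15 and 5.18 in the vehicle arrays and 7.86, 7.92, 6.93 and 7.13 in the PMA arrays. Of the 6 tested signal transducers, 0 rose and 1 fell (2 and 1 with a common median, 0 and 3 without PMA replicate 2). Of 22 listed chemokines, 12 passed the filter on dim signals, and of these 6 rose and 1 fell. The monocyte attractants CCL7 (5.46 ± 0.14) and CCL2 (2.56 ± 0.19) and the mucosal chemokine CCL20 (3.73 ± 0.20) rose from vehicle signals of 2.56, 3.28 and 3.04, near the floor. Genes this dim could pass the filter only through arrays that received PMA, so the chemokine count is partly set by the filter. In the TNF superfamily, 7 of 18 tested genes rose and 3 fell. The TWEAK receptor TNFRSF12A rose by 3.09 ± 0.13, the TRAIL decoy receptor TNFRSF10D by 1.07 ± 0.14 and the death receptor TNFRSF10B by 0.55 ± 0.11, and TNFRSF19 fell by 1.08 ± 0.10. TNFRSF12A read 8.18, 7.59, 7.76 and 7.51 in the vehicle arrays and 10.996, 10.66, 10.84 and 10.91 in the PMA arrays.

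In the TGF-beta, activin and BMP pathway, 16 of 42 tested genes rose and 13 fell. Ligands INHBA (3.20 ± 0.15), which forms activin A, BMP2 (1.46 ± 0.06) and TGFB1 (1.199 ± 0.12) rose. BMP2 read 7.48, 7.59, 7.57 and 7.59 in the vehicle arrays and 8.93, 9.07, 9.05 and 9.02 in the PMA arrays. Inhibitors mostly rose as well, 7 of 12 against 2 that fell. The corepressor SKIL rose by 1.99 ± 0.11. Of 4 tested targets, 1 rose and 3 fell, ID3 among them. Thus the ligand BMP2 rose in the same arrays in which ID3 and SMAD6 fell.

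Of 17 tested Wnt receptors, 0 rose and 12 fell, against 29.3% of all genes. The Frizzled receptors FZD2, FZD1 and FZD4 fell by 1.35 ± 0.08, 1.19 ± 0.09 and 1.18 ± 0.09. FZD2 read 7.28, 7.44, 7.29 and 7.28 in the vehicle arrays and 5.90, 6.15, 5.96 and 5.89 in the PMA arrays. Over the whole Wnt list, 10 of 46 tested genes rose and 17 fell, with 6 of 14 inhibitors higher and 3 lower. The inhibitors that rose included the secreted antagonists DKK1 (1.19 ± 0.13) and DKK2 (1.94 ± 0.21). With vehicle they averaged 4.18 and 2.58, below the array medians, and DKK2 was still below them with PMA (4.52). In the Hedgehog list 1 of 14 tested genes rose and 7 fell, among them the receptor and target PTCH1 (−0.997 ± 0.10), the coreceptors GAS1 (−1.14 ± 0.09) and CDON (−0.80 ± 0.11) and the negative regulator GPR161 (−0.73 ± 0.10). PTCH1 read 8.54, 8.38, 8.48 and 8.50 in the vehicle arrays and 7.29, 7.77, 7.32 and 7.54 in the PMA arrays. Each of the 4 PMA arrays lay below each vehicle array for PTCH1.

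For Eph receptors and ephrins, 2 of 16 tested genes rose and 8 fell (4 and 8 with a common median). EPHA7 fell by 1.57 ± 0.11, and the ephrins EFNA4 and EFNA5 by 1.199 ± 0.11 and 1.09 ± 0.08. EPHA2 was the exception with a rise of 3.22 ± 0.11. EPHA2 read 5.94, 5.62, 5.75 and 5.64 in the vehicle arrays and 9.05, 9.03, 8.87 and 8.90 in the PMA arrays. Among semaphorins, plexins and netrins, 4 of 36 tested genes rose and 12 fell (10 and 11 after cyclic loess, 9 and 9 with a common median), and the 33.3% that fell on the deposited scale are close to the 29.3% of all genes. SEMA6D fell by 1.55 ± 0.12 and the coreceptors NRP1 and NRP2 by 1.01 ± 0.10 and 0.73 ± 0.08, while SEMA7A rose by 1.37 ± 0.16.

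Notch genes had no common direction, and the Hippo and YAP list had more rises than falls. In the Notch list, 8 of 26 tested genes rose and 6 fell (8 and 3 with a common median, 6 and 8 without PMA replicate 2). NRARP, a target and feedback inhibitor of Notch, rose by 2.91 ± 0.08, the ligands JAG1 and DLL1 by 0.74 ± 0.13 and 0.71 ± 0.14 and the receptor NOTCH1 by 0.59 ± 0.12. NRARP read 8.15, 8.18, 8.11 and 8.01 in the vehicle arrays and 11.03, 11.11, 10.99 and 10.97 in the PMA arrays. Only the deposited scale and cyclic loess gave the list a negative median (−0.03 and −0.01), against 0.06 with a common median. In the Hippo and YAP list, 12 of 26 tested genes rose and 4 fell, and of 9 tested targets 6 rose and 2 fell, the rises including CCN1 (2.82 ± 0.09) and ANKRD1 (1.81 ± 0.21). CCN1 read 7.62, 7.21, 7.31 and 7.26 in the vehicle arrays and 10.23, 10.09, 10.14 and 10.21 in the PMA arrays.

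Of 6 listed EGR factors and NAB corepressors, 5 passed the filter on dim signals, and all 5 rose. EGR4 stood at 3.01 ± 0.13 and NAB2 at 2.22 ± 0.12. EGR3 and EGR4 averaged 2.93 and 3.48 with vehicle, so they could have passed the filter only through arrays that received PMA. Among Krüppel-like and SP factors, 11 of 17 tested genes rose and 5 fell. KLF10, a TGF-beta-inducible repressor, rose by 1.95 ± 0.09, KLF5 by 1.57 ± 0.12, KLF13 by 0.95 ± 0.09 and KLF6 by 0.81 ± 0.11. KLF10 read 8.90, 8.74, 8.90 and 8.86 in the vehicle arrays and 10.91, 10.98, 10.68 and 10.63 in the PMA arrays. Among ETS factors, many of which are ERK substrates, 11 of 18 tested genes rose and 2 fell. ETV5 rose by 2.84 ± 0.14, ETS1 by 1.49 ± 0.08, ETS2 by 1.07 ± 0.09 and the ternary complex factor ELK4 by 1.004 ± 0.10. ELK4 averaged below the array medians in both groups (3.73 with vehicle and 4.74 with PMA). ETV5 read 5.78, 5.54, 5.99 and 5.56 in the vehicle arrays and 8.51, 8.66, 8.50 and 8.57 in the PMA arrays. The NR4A receptors NR4A1 (2.33 ± 0.15), NR4A3 (1.83 ± 0.13) and NR4A2 (1.47 ± 0.11) rose, while in the wider list of orphan nuclear receptors 4 of 11 tested genes rose and 5 fell (4 and 3 after cyclic loess, 4 and 3 with a common median), with NR2F1 at −0.83 ± 0.11.

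HOX genes, which set positional identity, had 1 rise and 14 falls among 23 tested, with a median of −0.41 that kept its sign in the other scalings (−0.37 after cyclic loess and −0.32 with a common median). HOXB7 fell by 1.28 ± 0.08, HOXC8 fell by 1.2001 ± 0.14, HOXC4 by 0.91 ± 0.09 and HOXB5 by 0.93 ± 0.17. HOXB7 read 8.29, 8.34, 8.49 and 8.55 in the vehicle arrays and 7.20, 7.11, 7.05 and 7.16 in the PMA arrays. Among SOX and POU factors, 3 of 17 tested genes rose and 8 fell. The stem and neural progenitor factors SOX2 and SOX3 fell by 1.10 ± 0.09 and 1.03 ± 0.16, and SOX8 rose by 2.04 ± 0.11. For forkhead factors, 4 of 18 tested genes rose and 6 fell (5 and 4 after cyclic loess, 2 and 7 without PMA replicate 2), with FOXN3 at −0.92 ± 0.15, FOXQ1 at −0.83 ± 0.11 and FOXP1 at −0.54 ± 0.07. In the MYC network, 2 of 12 tested genes rose and 5 fell (4 and 4 after cyclic loess, 4 and 3 with a common median). MYC itself rose by 1.38 ± 0.16 and its partner MAX by 0.32 ± 0.07, while MYCL and the antagonist MXD3 fell by 0.87 ± 0.11 and 0.74 ± 0.09.

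MAP kinase phosphatases, which switch these kinases off, were nearly all higher. Of 10 tested MAP kinase phosphatases, 9 rose and 0 fell. DUSP2, which started near the floor, rose by 2.94 ± 0.20, DUSP1 by 2.19 ± 0.07 and DUSP5 by 1.83 ± 0.09. DUSP1 read 8.08, 7.96, 8.13 and 8.07 in the vehicle arrays and 10.35, 10.31, 10.10 and 10.24 in the PMA arrays. In the list of Ras and MAP kinase cascade genes, 16 of 44 tested genes rose and 14 fell (18 and 9 after cyclic loess). Of 10 tested inhibitors in it, 5 rose and 2 fell. The inhibitors SPRY2, SPRY4 and SPRED1 rose by 2.19 ± 0.07, 2.10 ± 0.16 and 1.72 ± 0.12. SPRY4 started at 3.38, near the floor. SPRY2 read 6.40, 6.56, 6.71 and 6.82 in the vehicle arrays and 8.81, 8.81, 8.81 and 8.83 in the PMA arrays. MAP3K14 (NIK), the kinase of the alternative NF-kB route, rose by 1.58 ± 0.10, the ERK-activated kinase RPS6KA3 (RSK2) by 1.17 ± 0.08, and MAP2K6, a p38 activator, fell by 1.02 ± 0.11.

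Among PI3K, AKT and mTOR genes, 8 of 27 tested genes rose and 7 fell (11 and 4 with a common median, 7 and 8 without PMA replicate 2). Of 14 tested inhibitors and adaptors in it, 5 rose and 3 fell (5 and 5 without PMA replicate 2), and these 3 act on mTOR complexes, with DDIT4 at −1.195 ± 0.10, SESN1 at −0.96 ± 0.08 and DEPTOR at −0.87 ± 0.11. PIK3R3, a regulatory subunit, stood at −0.94 ± 0.08, the catalytic PIK3CD at 1.06 ± 0.12 and the adaptor IRS2 at 0.97 ± 0.07. SESN1 read 9.03, 9.26, 8.95 and 8.96 in the vehicle arrays and 8.08, 8.11, 8.07 and 8.10 in the PMA arrays. Among RGS proteins and other G protein regulators, 6 of 15 tested genes rose and 1 fell. The GTPases GEM and RRAD, which inhibit voltage-gated calcium channels, rose by 3.48 ± 0.13 and 3.26 ± 0.24, and RGS4 by 3.11 ± 0.09.

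Enzymes of diacylglycerol and phosphoinositides, the lipids PMA mimics or bypasses, had 4 rises and 12 falls among 33 tested genes (9 and 10 after cyclic loess, 9 and 10 with a common median). ITPKC, an inositol trisphosphate kinase, rose by 2.67 ± 0.16 and the diacylglycerol kinase DGKH by 1.80 ± 0.17, whereas ITPKB fell by 0.97 ± 0.15, the phosphatase PLPP3 by 0.74 ± 0.08 and the phospholipases PLCE1 and PLD1 by 0.56 ± 0.11 and 0.55 ± 0.11. ITPKC read 7.09, 7.03, 6.98 and 7.07 in the vehicle arrays and 9.82, 10.15, 9.502 and 9.39 in the PMA arrays. PMA replicate 2 was the highest PMA array for ITPKC. In the calcium, cyclic nucleotide and adenylyl cyclase list, 6 of 39 tested genes rose and 13 fell (10 and 11 after cyclic loess, 11 and 10 with a common median). The calcineurin-dependent factors NFATC1 and NFATC2 rose by 2.07 ± 0.10 and 0.75 ± 0.16, CREB5 by 1.10 ± 0.18, and the cGMP phosphodiesterase PDE5A fell by 1.36 ± 0.10. Among potassium channels, 6 of 22 tested genes rose and 4 fell, with KCNK1 at 0.96 ± 0.11 and KCNS3 at −1.05 ± 0.13.

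Genes of the cytoskeleton rose more often than they fell, while 17.7% of all genes rose and 29.3% fell. Among actin cytoskeleton genes, 11 of 29 tested genes rose and 1 fell, with the focal adhesion proteins ZYX (0.99 ± 0.12), VCL (0.78 ± 0.07) and PXN (0.44 ± 0.12), tropomyosin TPM4 (0.63 ± 0.10) and the myosin heavy chain MYH9 (0.40 ± 0.09). VCL read 10.63, 10.75, 10.55 and 10.61 in the vehicle arrays and 11.46, 11.53, 11.31 and 11.35 in the PMA arrays. Tubulins had 10 rises and 2 falls among 15 tested genes. TUBB2A rose by 1.30 ± 0.08 and the neuronal isotype TUBB3 by 0.75 ± 0.13. TUBB2A read 11.23, 11.24, 11.27 and 11.18 in the vehicle arrays and 12.49, 12.76, 12.43 and 12.47 in the PMA arrays. Keratins and intermediate filaments had 4 rises and 1 fall among 15 tested genes (7 and 1 with a common median). Among integrins, 4 of 16 tested genes rose and 1 fell (7 and 1 after cyclic loess, 8 and 1 with a common median, 2 and 1 without PMA replicate 2), with ITGA6 at 0.75 ± 0.12 and ITGAV at 0.69 ± 0.14. The 25% of integrins that rose are not far from the share of all genes. Cadherins, claudins and their partners did not lean towards rises. There 4 of 23 tested genes rose and 6 fell (6 and 5 with a common median), with desmoplakin DSP at 0.69 ± 0.13, occludin OCLN at 0.64 ± 0.11, CDH11 at −0.70 ± 0.09 and PKP3 at −0.55 ± 0.07.

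Extracellular matrix genes had 9 rises and 1 fall among 33 tested genes (15 and 1 with a common median). Thrombospondin THBS1 rose by 2.51 ± 0.19, tenascin TNC by 1.12 ± 0.16, COL12A1 by 0.83 ± 0.16 and COL4A1 by 0.55 ± 0.08, and versican VCAN fell by 0.51 ± 0.12. TNC read 8.77, 8.38, 8.54 and 8.43 in the vehicle arrays and 9.88, 9.95, 9.27 and 9.51 in the PMA arrays. In the list of matrix proteases and inhibitors, 19 of 36 tested genes rose and 4 fell (22 and 2 with a common median). Of 19 tested proteases 9 rose and 2 fell, and of 12 tested inhibitors 7 rose and 1 fell. The plasminogen activator PLAT rose by 1.69 ± 0.12, the urokinase receptor PLAUR by 1.86 ± 0.11 and the intracellular serpin SERPINB8 by 2.34 ± 0.11. PLAT read 8.05, 7.88, 7.77 and 8.001 in the vehicle arrays and 9.69, 9.83, 9.53 and 9.41 in the PMA arrays. Among prostaglandin genes, 3 of 11 tested genes rose and 4 fell (6 and 3 after cyclic loess, 6 and 3 with a common median). Cyclooxygenase PTGS2 rose by 4.10 ± 0.11 and the receptor PTGER2 by 0.63 ± 0.16, whereas HPGD, which degrades prostaglandins, fell by 0.57 ± 0.10 and PTGES2 by 0.43 ± 0.10. PTGS2 read 2.96, 3.43, 3.27 and 3.45 in the vehicle arrays and 7.35, 7.56, 7.24 and 7.34 in the PMA arrays.

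Mitochondrial and lipid genes had more falls than rises, as all genes did (17.7% rose and 29.3% fell). Respiratory chain and citrate cycle genes had 1 rise and 25 falls among 63 tested genes (2 and 11 with a common median), with the complex I subunits NDUFV2 and NDUFB10 at −0.52 ± 0.10 and −0.42 ± 0.09 and the succinate dehydrogenase subunit SDHA at −0.36 ± 0.08. The largest of these falls was 0.52 in size. They made up 39.7% of the list on the deposited scale. With a common median 2748 of all 12495 genes fell, so the larger share of falls in this list was not kept there. Mitochondrial ribosomal proteins had 3 rises and 35 falls among 74 tested genes (5 and 26 after cyclic loess, 6 and 21 with a common median, 6 and 27 without PMA replicate 2). MRPL34 fell by 0.75 ± 0.07, MRPS33 by 0.67 ± 0.11 and MRPS26 by 0.61 ± 0.08. MRPL34 read 9.94, 9.99, 10.02 and 10.10 in the vehicle arrays and 9.15, 9.16, 9.34 and 9.39 in the PMA arrays. Cytoplasmic ribosomal proteins differed from them in count, with 1 rise and 3 falls among 70 tested genes (1 and 5 after cyclic loess, 4 and 2 with a common median), and no test of that contrast was made.

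Genes of LDL uptake and fatty acid metabolism had 4 rises and 17 falls among 32 tested genes (7 and 14 after cyclic loess, 8 and 13 with a common median). CPT1A and CPT2, which carry fatty acids into mitochondria, fell by 0.57 ± 0.09 and 0.87 ± 0.10, the desaturase SCD by 0.50 ± 0.06 and the sterol exporter ABCG1 by 0.57 ± 0.12, while ACSL4 rose by 0.68 ± 0.10. CPT2 read 7.18, 7.20, 7.06 and 6.74 in the vehicle arrays and 6.27, 5.93, 6.28 and 6.20 in the PMA arrays. In glycolysis and glucose uptake, 5 of 36 tested genes rose and 14 fell (5 and 7 with a common median). PFKFB3, which makes the activator of phosphofructokinase, rose by 1.08 ± 0.10, and ARRDC3, an arrestin relative of TXNIP, fell by 1.13 ± 0.15. Of 8 tested glucose transporters, 0 rose and 3 fell, with SLC2A6 at −0.83 ± 0.11 and SLC2A12 at −0.61 ± 0.15. The 37.5% that fell are not far from the 29.3% of all genes. Only 2 of the 3 kept probe sets of SLC2A6 had this sign. Serine, one-carbon and nucleotide synthesis had 6 rises and 10 falls among 29 tested genes (9 and 3 with a common median), among them RRM2 at 0.73 ± 0.08, CTPS2 at −0.72 ± 0.08 and SHMT1 at −0.46 ± 0.06. Amino acid transporters split evenly, with 6 rises and 6 falls among 23 tested genes (10 and 5 after cyclic loess, 10 and 5 with a common median), SLC7A1 at 0.996 ± 0.08, SLC7A5 at 0.81 ± 0.08 and SLC7A2 at −0.78 ± 0.08.

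Heat shock and NRF2 genes had more rises than falls. Heat shock factors and chaperones had 14 rises and 0 falls among 25 tested genes. The inducible chaperone HSPA6 rose by 3.64 ± 0.21, the small heat shock protein HSPB8 by 2.33 ± 0.24, HSPA1B by 0.79 ± 0.12 and HSPH1 by 0.77 ± 0.08. HSPB8 read 7.35, 6.66, 6.58 and 6.67 in the vehicle arrays and 9.62, 9.21, 8.86 and 8.89 in the PMA arrays. HSPA6 read 4.39, 3.89, 3.75 and 4.17 in the vehicle arrays and 8.06, 7.93, 7.45 and 7.31 in the PMA arrays. HSPA1B has a near-identical neighbour, so its signal may include both copies. In the NRF2 list, 10 of 24 tested genes rose and 5 fell (11 and 3 after cyclic loess, 13 and 2 with a common median, 10 and 3 without PMA replicate 2). NFE2L2, the factor itself, rose by 0.61 ± 0.08, the small MAF proteins MAFF and MAFG by 3.94 ± 0.13 and 0.73 ± 0.09 and sulfiredoxin SRXN1 by 0.94 ± 0.07. Hypoxia targets had 7 rises and 10 falls among 25 tested genes, with NDRG1 at 1.75 ± 0.10 and BNIP3 at −0.79 ± 0.11.

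Ribosome biogenesis had one of the larger shares of rises, with 28 rises and 3 falls among 43 tested genes. The small subunit processome factors WDR43, UTP3 and UTP15 rose by 1.003 ± 0.06, 0.98 ± 0.07 and 0.76 ± 0.10, LYAR by 0.85 ± 0.07, NOP16 by 0.71 ± 0.14 and the RNA polymerase I subunit POLR1B by 0.64 ± 0.07. WDR43 read 7.58, 7.49, 7.44 and 7.65 in the vehicle arrays and 8.56, 8.50, 8.58 and 8.52 in the PMA arrays. UTP3 read 8.48, 8.45, 8.51 and 8.60 in the vehicle arrays and 9.58, 9.42, 9.57 and 9.39 in the PMA arrays. Both genes had PMA arrays well clear of the vehicle arrays. The list median was 0.30, against −0.04 over all genes. mRNA decay factors had 15 rises and 4 falls among 30 tested genes (17 and 2 after cyclic loess, 17 and 2 with a common median). Besides ZFP36, its relative ZFP36L2 rose by 0.88 ± 0.09, the endonuclease ZC3H12C by 1.09 ± 0.15, the stem-loop binder RC3H1 by 1.002 ± 0.14 and the decapping factor DCP1A by 0.88 ± 0.06. DCP1B fell by 0.80 ± 0.09. DCP1A read 7.43, 7.40, 7.61 and 7.49 in the vehicle arrays and 8.42, 8.34, 8.29 and 8.39 in the PMA arrays. DCP1B read 7.45, 7.32, 7.26 and 7.22 in the vehicle arrays and 6.49, 6.80, 6.42 and 6.36 in the PMA arrays. The paralogous decapping factors therefore moved apart, with no overlap of groups in either.

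Splicing factors had 13 rises and 4 falls among 50 tested genes (22 and 2 with a common median). Among the kinases that phosphorylate SR proteins, CLK1 stood at 0.44 ± 0.07, CLK3 at 0.39 ± 0.08 and CLK2 at −0.76 ± 0.10. Only 1 of the 2 kept probe sets of CLK3 had this sign, and CLK1 kept its call in 17 of 18 alternatives. Nucleoporins had 9 rises and 1 fall among 22 tested genes, led by NUP58 (0.55 ± 0.10) and NUP54 (0.46 ± 0.06). DEAD and DEAH helicases had 15 rises and 11 falls among 48 tested genes (19 and 7 after cyclic loess, 23 and 7 with a common median), with DDX3X at 0.71 ± 0.08. Translation initiation factors had 9 rises and 6 falls among 41 tested genes (16 and 2 with a common median), with EIF5 at 0.62 ± 0.09. Proteasome genes had 1 rise and 3 falls among 27 tested genes (3 and 2 after cyclic loess, 7 and 0 with a common median, 2 and 1 without PMA replicate 2). PSMD12 was the 1 that rose (0.71 ± 0.07), and the 3 falls, PSMA7, PSMB5 and PSMB1, were not called in all 3 scalings. Aminoacyl-tRNA synthetases had 2 rises and 3 falls among 19 tested genes (5 and 1 with a common median), with AARS1 at −0.93 ± 0.08.

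DNA repair genes had 5 rises and 34 falls among 58 tested genes (3 and 32 without PMA replicate 2). FANCE and FANCF, members of the Fanconi anaemia core complex, fell by 1.10 ± 0.08 and 0.70 ± 0.09, the nucleotide excision sensor XPC by 0.74 ± 0.08, the checkpoint kinases CHEK2 and ATR by 0.69 ± 0.08 and 0.66 ± 0.10, and BRCA1 by 0.67 ± 0.06. BRCA1 read 8.53, 8.71, 8.59 and 8.80 in the vehicle arrays and 8.05, 7.94, 7.95 and 7.98 in the PMA arrays. FANCE read 7.47, 7.36, 7.32 and 7.35 in the vehicle arrays and 6.16, 6.32, 6.43 and 6.22 in the PMA arrays. Every PMA array was below every vehicle array in both. Among G1 cyclins and CDK inhibitors, 8 of 23 tested genes rose and 4 fell (7 and 8 without PMA replicate 2). CCND1 rose by 0.99 ± 0.11, CCNE2 by 0.60 ± 0.12 and the inhibitor CDKN1A (p21) by 1.61 ± 0.15, while the inhibitor CDKN1B (p27) fell by 0.99 ± 0.07. CDKN1B read 9.18, 9.05, 9.23 and 9.37 in the vehicle arrays and 8.25, 8.27, 8.19 and 8.18 in the PMA arrays. Kinesins had 3 rises and 12 falls among 34 tested genes (10 and 9 after cyclic loess, 9 and 6 with a common median), with the mitotic motors KIF20A and KIF11 at −0.76 ± 0.07 and −0.52 ± 0.07. In the BCL2 family, 5 of 18 tested genes rose and 6 fell. The survival protein MCL1 rose by 1.23 ± 0.09, the effector BAX fell by 0.62 ± 0.06, and the sensitiser BIK rose by 0.59 ± 0.11. MCL1 read 10.74, 10.49, 10.65 and 10.46 in the vehicle arrays and 11.76, 12.04, 11.76 and 11.68 in the PMA arrays.

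Histone methylation genes had 12 rises and 11 falls among 56 tested genes (20 and 9 after cyclic loess, 20 and 9 with a common median, 9 and 15 without PMA replicate 2). KDM6B, a demethylase of the Polycomb mark, rose by 1.70 ± 0.13, DOT1L by 1.41 ± 0.13 and KDM7A by 0.59 ± 0.12, and EHMT2 (G9a) fell by 0.69 ± 0.08. DOT1L read 6.07, 5.79, 6.27 and 6.02 in the vehicle arrays and 7.22, 7.82, 7.36 and 7.41 in the PMA arrays. Histone acetylation and Polycomb genes had 14 rises and 16 falls among 46 tested genes (17 and 13 after cyclic loess, 18 and 13 with a common median). SIRT3 and SIRT5, mitochondrial deacylases, fell by 0.99 ± 0.10 and 0.68 ± 0.09, the acetyltransferases KAT5 and KAT6B by 0.72 ± 0.08 and 0.79 ± 0.14, and HDAC5 rose by 0.68 ± 0.08. Histone genes had 0 rises and 12 falls among 34 tested genes (2 and 8 with a common median). H2AC6 (−0.67 ± 0.19) and H1-2 (−0.46 ± 0.11) were among them. Transcripts of replication-dependent histones lack long poly(A) tails and are near-identical between copies, and the array primes at the 3' end, so these values are uncertain. Mediator subunits had 4 rises and 9 falls among 27 tested genes (7 and 6 after cyclic loess, 7 and 7 with a common median), with MED20 at −1.52 ± 0.12. MED20 read 8.78, 8.84, 8.81 and 8.76 in the vehicle arrays and 6.87, 7.66, 7.22 and 7.34 in the PMA arrays.

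Cilium genes, that is intraflagellar transport and BBSome components, had 4 rises and 25 falls among 50 tested genes. The BBSome subunits TTC8, BBS2 and BBS4 fell by 0.82 ± 0.07, 0.71 ± 0.10 and 0.62 ± 0.07 and the chaperonin-like BBS10 by 0.69 ± 0.06, whereas RPGR rose by 0.65 ± 0.09. ARL6 counted as a rise (0.65 ± 0.10), but another of its kept probe sets was called lower (−0.53 ± 0.15, overlap of its groups not examined). ARL6 therefore has no single direction here. TTC8 read 7.13, 7.23, 7.25 and 7.29 in the vehicle arrays and 6.39, 6.34, 6.42 and 6.45 in the PMA arrays. BBS10 read 7.94, 7.998, 7.98 and 7.92 in the vehicle arrays and 7.27, 7.34, 7.21 and 7.27 in the PMA arrays. The falls were below 1 on the log2 scale but the 4 arrays of each group stayed apart in both genes. Centrosomal CEP genes had 4 rises and 15 falls among 36 tested genes (10 and 12 after cyclic loess, 10 and 13 with a common median) and coiled-coil CCDC genes 5 rises and 29 falls among 70 tested genes (8 and 24 after cyclic loess, 10 and 25 with a common median). Autophagy and lysosome genes had 9 rises and 10 falls among 44 tested genes (13 and 7 after cyclic loess, 15 and 6 with a common median). GABARAPL1 rose by 1.12 ± 0.09, the protease CTSB by 0.58 ± 0.08, and ATG10, ATG4C and WIPI1 fell by 0.86 ± 0.12, 0.78 ± 0.07 and 0.69 ± 0.06.

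**Figure D4:**
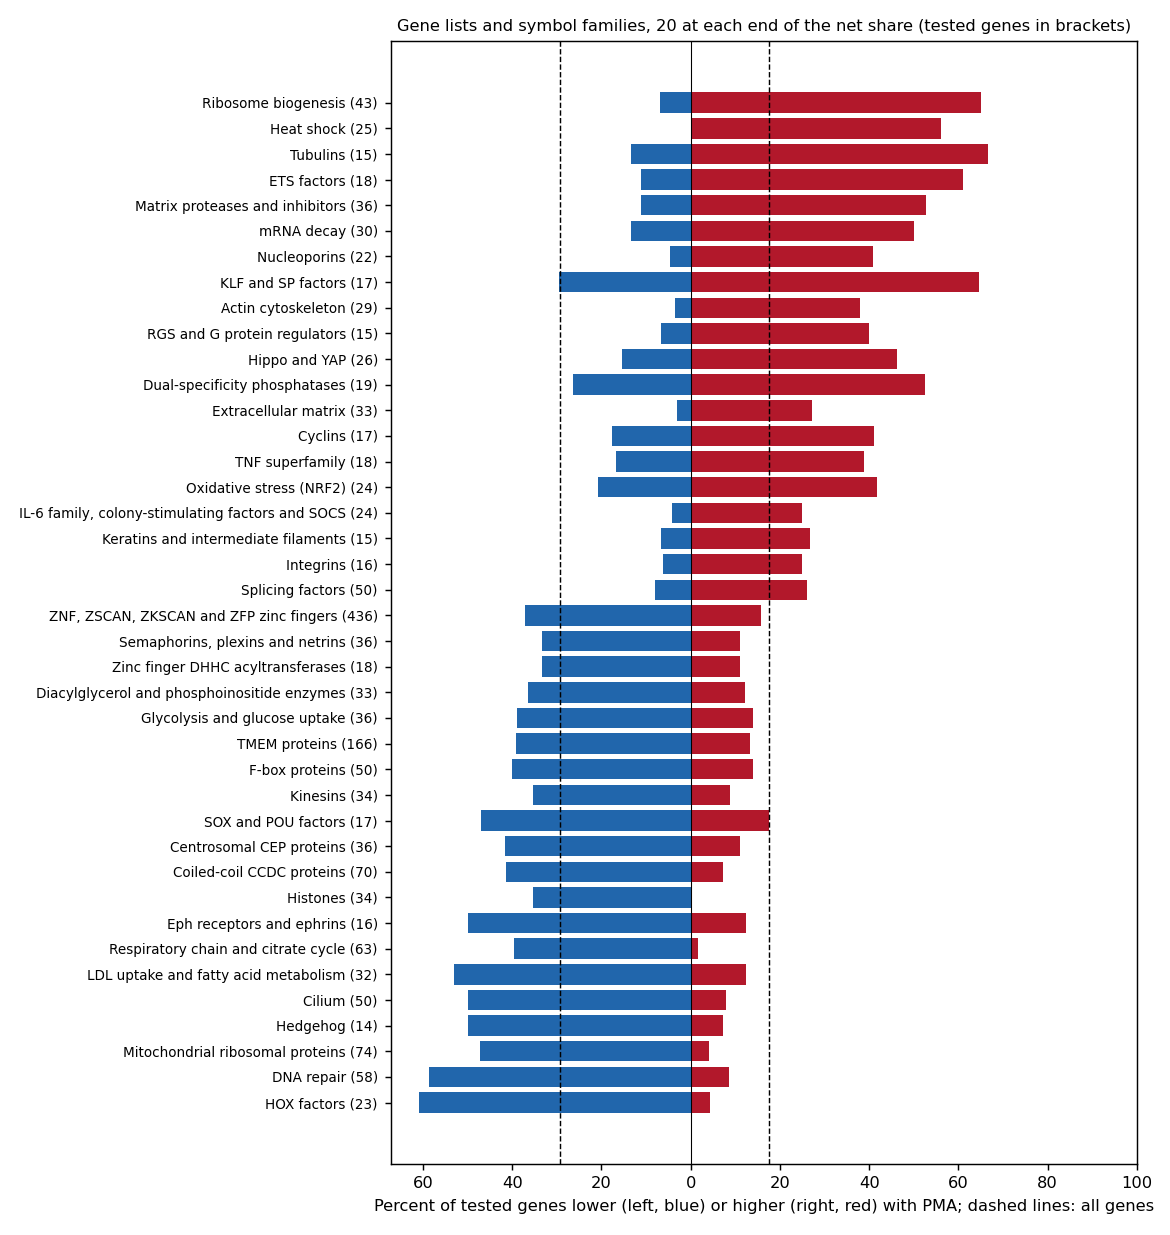
Percent of tested members that rose (red, right) or fell (blue, left) for the 20 gene lists or families at each end of the net share, among those described here with at least 14 tested genes; dashed lines mark all genes (17.7% higher, 29.3% lower). Ribosome biogenesis and heat shock lie at one end, HOX factors and DNA repair at the other.

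The largest family by symbol was that of the ZNF, ZSCAN, ZKSCAN and ZFP zinc fingers, many of which are KRAB repressors. On the deposited scale 69 of 436 tested genes rose and 162 fell (108 and 133 with a common median), so that 37.2% were lower, against 29.3% of all genes. After cyclic loess 102 rose and 136 fell. ZNF449, ZFP14 and ZNF33B fell by 2.24 ± 0.13, 1.85 ± 0.11 and 1.82 ± 0.10, each to a level below the array medians. ZNF33B read 6.13, 6.15, 6.05 and 6.23 in the vehicle arrays and 4.08, 4.43, 4.34 and 4.41 in the PMA arrays. BTB zinc fingers had 9 rises and 9 falls among 34 tested genes (12 and 7 after cyclic loess, 12 and 6 with a common median, 7 and 10 without PMA replicate 2). ZBTB12 stood at −1.29 ± 0.10 and ZBTB14 at −0.98 ± 0.07.

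Ubiquitin enzymes moved in both directions, as all genes did (17.7% rose and 29.3% fell). The shares that rose and fell were 27.4% and 33.9% for RNF ligases, 14% and 40% for F-box proteins and 12.5% and 27.5% for TRIM proteins. They were 26.8% and 29.3% for ubiquitin-specific proteases and 32% and 28% for Kelch-like proteins. Several of these lie close to the shares of all genes. RNF ligases had 17 rises and 21 falls among 62 tested genes, with RNF122 (1.67 ± 0.10), RNF152 (1.55 ± 0.08) and RNF19A (1.26 ± 0.10) against RNF144B (−1.42 ± 0.11). F-box proteins had 7 rises and 20 falls among 50 tested genes. FBXO32 (atrogin-1) rose by 1.34 ± 0.14 and FBXL4 fell by 1.07 ± 0.11. TRIM proteins had 5 rises and 11 falls among 40 tested genes (9 and 11 with a common median), and TRIM9, a neural E3 ligase, rose by 2.78 ± 0.13. TRIM9 read 5.55, 5.31, 5.59 and 5.67 in the vehicle arrays and 8.23, 8.69, 8.20 and 8.12 in the PMA arrays. Ubiquitin-specific proteases had 11 rises and 12 falls among 41 tested genes (14 and 11 after cyclic loess, 16 and 11 with a common median), with USP30, which acts at mitochondria, at −1.32 ± 0.08, USP44 at −1.13 ± 0.09 and USP12 at 0.96 ± 0.09. Kelch-like proteins had 8 rises and 7 falls among 25 tested genes, with KLHL21 at 1.17 ± 0.11 and KLHL22 at −0.92 ± 0.08.

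Solute carriers, RAB GTPases and glycosyltransferases fell in 27.8%, 25.0% and 29.4% of their tested genes, close to or under the 29.3% of all genes. Solute carriers had 40 rises and 67 falls among 241 tested genes (58 and 51 after cyclic loess, 64 and 50 with a common median). Ferroportin, SLC40A1, fell by 1.75 ± 0.11, SLC16A14 by 1.28 ± 0.07, and SLC35G2 rose by 1.64 ± 0.08. SLC35G2 read 7.53, 7.16, 7.43 and 7.42 in the vehicle arrays and 9.06, 9.005, 9.003 and 9.03 in the PMA arrays. SLC16A14 read 7.74, 7.85, 7.71 and 7.94 in the vehicle arrays and 6.47, 6.56, 6.64 and 6.44 in the PMA arrays. TMEM proteins had 22 rises and 65 falls among 166 tested genes, with TMEM217 at 2.49 ± 0.13 and TMEM200A at 2.48 ± 0.14. RAB GTPases had 5 rises and 11 falls among 44 tested genes (9 and 11 after cyclic loess, 10 and 10 with a common median), with RAB20 at 0.99 ± 0.13 and RAB36 at −0.91 ± 0.11. Glycosyltransferases had 15 rises and 20 falls among 68 tested genes (21 and 17 after cyclic loess, 22 and 17 with a common median). ST6GAL1, which adds terminal sialic acid, fell by 1.18 ± 0.12, B4GAT1 by 1.14 ± 0.08, and B3GAT1 rose by 1.11 ± 0.12. Antisense and long intergenic RNAs had 8 rises and 23 falls among 75 tested genes (17 and 22 with a common median), with LINC00205 at −0.97 ± 0.07. Of 4 tested microRNA host genes, MIR22HG rose by 1.53 ± 0.12 and MIR1915HG fell by 1.16 ± 0.14.

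Smaller groups had few calls or a mixed pattern. Cyclins had 7 rises and 3 falls among 17 tested genes (8 and 1 with a common median, 4 and 5 without PMA replicate 2), with the meiotic cyclin CCNA1 at 1.45 ± 0.11. Dual-specificity phosphatases as a whole had 10 rises and 5 falls among 19 tested genes. ANKRD proteins had 6 rises and 8 falls among 26 tested genes (12 and 6 after cyclic loess, 11 and 6 with a common median), ARL and ARF GTPases 4 rises and 5 falls among 14 tested genes, and adhesion and orphan GPCRs 6 rises and 8 falls among 43 tested genes (13 and 7 after cyclic loess, 13 and 7 with a common median), with GPR37 at −0.99 ± 0.07. Regulatory subunits of protein phosphatases had 10 rises and 11 falls among 49 tested genes (17 and 10 after cyclic loess, 18 and 9 with a common median). PPP1R15A (GADD34), which directs dephosphorylation of eIF2alpha, rose by 1.02 ± 0.13, and PPP1R3D, a glycogen-targeting subunit, fell by 1.25 ± 0.09. Protein tyrosine phosphatases had 3 rises and 5 falls among 23 tested genes (5 and 4 after cyclic loess, 6 and 4 with a common median), E2 ubiquitin enzymes 5 rises and 5 falls among 26 tested genes (5 and 3 after cyclic loess, 7 and 3 with a common median), protocadherins 2 rises and 4 falls among 14 tested genes, DHHC acyltransferases 2 rises and 6 falls among 18 tested genes (4 and 5 with a common median), CXXC and PHD finger proteins 5 rises and 4 falls among 21 tested genes (8 and 3 with a common median, 2 and 5 without PMA replicate 2), Exosome and Integrator subunits 4 rises and 6 falls among 26 tested genes (6 and 4 after cyclic loess, 5 and 3 with a common median) and sulfotransferases 4 rises and 4 falls among 20 tested genes (7 and 4 after cyclic loess).

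Probe sets of a gene did not always move together. Of the kept probe sets, 1 of 2 for MXD3, 2 of 3 for DLL1 and 4 of 5 for SHMT1 had the sign given above. Among the 264 genes changed at least 2-fold that had several kept probe sets, all probe sets had the same sign in 254, 96.2%, and among all 3640 called genes with several it was 3003, 82.5%. In 204 genes, 1 kept probe set rose and another fell, both called in a fit over probe sets. For NUFIP2 the values were 0.98 and −1.21, for ID4 1.30 and −0.92, for PAFAH1B1 0.67 and −0.86, for SMAD5 0.70 and −0.65, and for SYNCRIP 0.60 and −0.70. Others of this kind were TNKS, SPTLC2, AGFG1, CCDC50, CYLD, SREK1IP1 and AMOTL1. The probe sets of 1 gene can read different transcript ends, which was not tested, and these genes have no single direction here.

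The spread of the PMA arrays was widest, relative to the vehicle arrays, in genes where PMA replicate 2 differed from the other 3. NUP37 read 7.83, 7.01, 7.91 and 7.91 in the 4 PMA arrays and RPL23 12.54, 11.77, 12.63 and 12.68, with replicate 2 the lowest, and DUSP8 read 6.73, 7.61, 6.72 and 6.77, with replicate 2 the highest. NUP37 (−0.28 ± 0.17, adjusted p = 0.172, limma) and RPL23 (−0.27 ± 0.19) did not pass. DUSP8 (1.14 ± 0.17) and TEAD2 (−0.66 ± 0.15) did, and stayed past the threshold under each of the 18 alternatives tried for them. At the other extreme, among the 500 genes with the highest levels, those with the smallest differences were RPL7A (−0.0003), UBE2E1 (−0.0007), MCM7 (0.0013), MAGT1 (−0.0021) and CLPTM1L (−0.0045). PPIA was among them (0.0015), but the mean of its kept probe sets gave −0.36.

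The same contrast was available in 8 further arrays, DOC plus PMA against DOC. There 5323 genes passed, 42.6% of those tested. Of the 5869 genes called for PMA against vehicle, 5794 had the same sign and 4646 also passed, which is 79.2% of the first calls and 87.3% of the second. Of the 457 genes changed at least 2-fold, 457 had the same sign and 456 passed. Across the 12495 genes the differences of both contrasts correlated at 0.959, as a description across genes of the same platform. CXCL8 stood at 6.45 without and 6.08 with DOC, TFPI2 at 4.89 and 4.91, WDR43 at 1.00 and 0.94, ID3 at −1.76 and −1.50, FZD2 at −1.35 and −1.38 and BRCA1 at −0.67 and −0.69.

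The difference between both contrasts, the interaction, passed in 11 genes, 0.0880% of those tested. HSPA6 stood at 3.64 ± 0.21 without and 1.41 ± 0.21 with DOC (interaction adjusted p = 0.00200, limma). PHLDA1 stood at 3.83 ± 0.09 and 3.06 ± 0.09. TXNIP fell by 2.26 ± 0.15 and by 1.02 ± 0.15. In APOLD1, an endothelial early response gene, and HS3ST3B1, a heparan sulfate sulfotransferase, the sign turned, from −0.86 to 0.75 and from −0.34 to 0.42. CYP26A1, which degrades retinoic acid, went from 0.91 to 3.89, XIRP1 from 1.25 to 2.85, TIPARP from 0.40 to 1.59, PDK4 from 0.42 to 1.60, RGS2 from 0.46 to 1.15 and RHOB from 0.06 to 0.80. RHOB did not pass for PMA against vehicle (adjusted p = 0.599, limma), and the other 10 did.

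**Figure D5:**
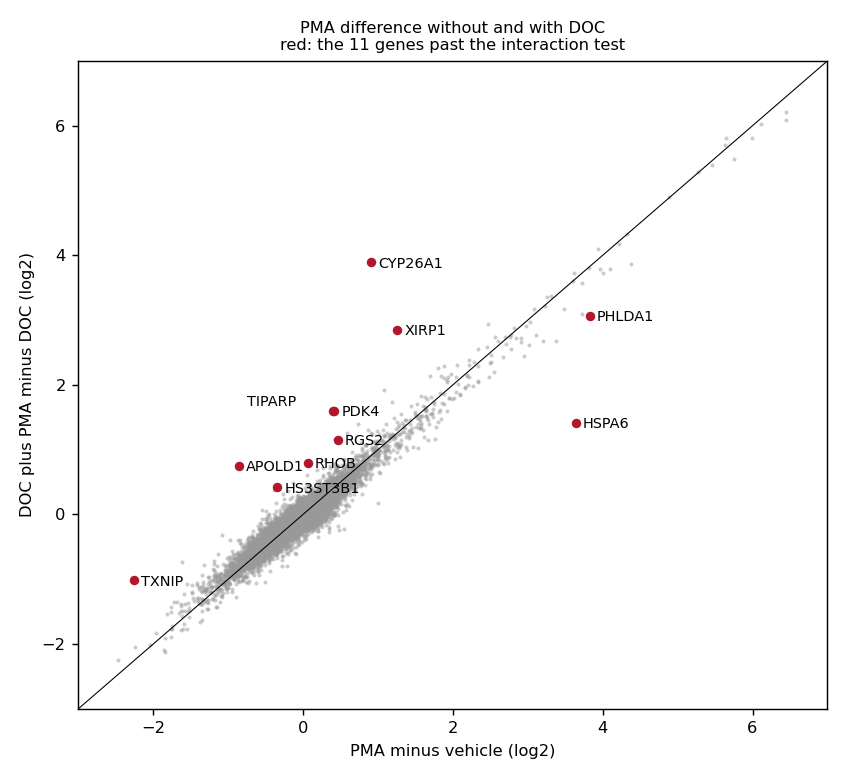
Log2 difference of DOC plus PMA minus DOC (vertical) against PMA minus vehicle (horizontal) for 12495 genes, with the line of equality. The 11 genes past the interaction test are red and named, and the others lie along the line (r = 0.959).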

How the data were processed

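The authors deposited log2 RMA values of a 3' IVT expression array. The submitters' processing notes name Affymetrix Expression Console, and its version is not given in the sources used here. The RMA method sets all arrays to a common distribution, so a shift of all transcripts cannot be seen. Arrays have no read depth, and their number limits the precision (median SE 0.0879). Of 49293 probe sets, 44988 had 1 gene in the platform annotation. Probe sets had to reach the 40th percentile of the array on 4 or more of the 16 arrays, and the brightest kept one stood for its gene (12495 genes).

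Group means of all 16 arrays were fitted with limma 3.58.1 (lmFit, eBayes, R 4.3.3), two-sided, Benjamini-Hochberg adjusted, and tested on simulated data. The members, 56 gene lists and 39 symbol families were chosen with earlier results of these data known, and lists are described by counts without a set test. A few of these results are not reported here. Genes were named by rule: the 12 largest rises and falls above the array medians, the 5 largest of all genes, up to 4 called genes per list or family (6 in lists over 30), 12 with opposite probe sets, 12 with a wide PMA spread and 10 of the steadiest. NR3C2, the markers and the interaction genes outside that rule were named after their values were seen. PMA and vehicle arrays of the same replicate number were not treated as pairs. Their deviations correlated at 0.377, −0.080, −0.160 and −0.003, the first being the highest of any PMA and vehicle pair. So few values cannot settle whether the numbers pair arrays. Other filters, scalings, probe set summaries, blocks, weights and left-out arrays were tried.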

Additional observations from a re-analysis of the deposited data

Results flagged for a closer look

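In 228 groups of 4 arrays (114 genes, vehicle and PMA each), 13 had a highest or lowest array whose gap to the next, divided by the range of the group, was above the critical value of Dixon's test for 4 samples. Chance alone flags about 1 in 20 such groups. C11orf96 read 7.18 in vehicle replicate 3, the highest, and 6.65 in the next array. F3 read 6.05 in vehicle replicate 2, the lowest, and 6.28 in the next array. TLCD1 read 5.56 in PMA replicate 4, the highest, and 5.17 in the next array. TMEM170B read 6.81 in PMA replicate 2, the highest, and 6.25 in the next array. EGR3 read 9.67 in PMA replicate 2, the highest, and 9.32 in the next array. ZNF449 read 4.38 in PMA replicate 3, the highest, and 3.88 in the next array. SEMA6D read 3.73 in PMA replicate 3, the lowest, and 4.09 in the next array. SPRY2 read 8.83 in PMA replicate 4, the highest, and 8.81 in the next array. ITGA6 read 9.36 in vehicle replicate 2, the lowest, and 9.53 in the next array. FBXO32 read 6.45 in PMA replicate 1, the highest, and 6.30 in the next array. UBE2D4 read 5.81 in PMA replicate 4, the highest, and 5.62 in the next array. PHF20 read 6.504 in vehicle replicate 1, the lowest, and 6.76 in the next array. CCDC8 read 7.31 in PMA replicate 2, the highest, and 7.11 in the next array.

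The PMA difference with DOC minus that without DOC passed the interaction test in limma for 11 genes. For APOLD1 it was 1.61 (adjusted p = 0.000531). For CYP26A1 it was 2.98 (adjusted p = 5.65e-08). For HS3ST3B1 it was 0.76 (adjusted p = 0.00301). For HSPA6 it was −2.23 (adjusted p = 0.002). For PDK4 it was 1.18 (adjusted p = 0.0381). For PHLDA1 it was −0.77 (adjusted p = 0.0194). For RGS2 it was 0.69 (adjusted p = 0.0194). For RHOB it was 0.73 (adjusted p = 0.0234). For TIPARP it was 1.18 (adjusted p = 0.00137). For TXNIP it was 1.24 (adjusted p = 0.0194). For XIRP1 it was 1.59 (adjusted p = 0.0194). The 8 arrays of each contrast are separate samples, so these are tests of the difference itself, and no cause was tested.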

How the results depend on the processing

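The number of genes that passed for PMA against vehicle (5869) ranged from 5086 with a 60th percentile filter to 6505 with array weights, and from 5243 to 5820 when 1 array of the contrast was left out. A replicate block gave 6108 genes over 16 arrays and 5251 over 8, and the labels do not say what a number shares between these groups. With each array centred on a common median, 3418 genes rose in place of 2206. The interaction passed in 11 genes, in 25 with array weights and in 15 with the replicate block, and in 5 to 14 when 1 array was left out (5 without DOC replicate 4, 6 without vehicle replicate 2, PMA replicate 4, DOC plus PMA replicate 1 or DOC plus PMA replicate 4, and 7 without vehicle replicate 3, DOC replicate 2 or DOC plus PMA replicate 2); the cause was not tested. Of 439 named genes that passed, 406 kept their call under every alternative tried for them. The sign turned with the mean of kept probe sets for AGFG1 (−0.0513), CCDC50 (−0.0716), CYLD (−0.0416), PPIA (−0.36), SPTLC2 (−0.0931), TNKS (0.12) and UBE2K (0.0430), where another probe set of the gene moved the other way, and without the filter on dim probe sets for KLHL14 (0.0861), where the gene's probe set could change. Of 95 list and family medians, 29 changed sign in another scaling, so a small median has no direction. Signals near the floor limit how large a fold change of a dim gene can appear.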
